A study of Mus musculus with 21 samples.

Results

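The genes described here encode subunits of the oxidative phosphorylation machinery. They were chosen by symbol, as rows beginning mt-Nd, mt-Co, mt-Cytb or mt-Atp for genes in mitochondrial DNA, and as Nduf followed by a, b, c, s or v and a number, Uqcr, Cox4 to Cox8, or Atp5 for genes in the nucleus. The 6 matching symbols that mark pseudogenes with -ps were dropped. The rule found 93 of the 48321 symbols in the count tables, 13 encoded in mitochondrial DNA and 80 in the nucleus. By symbol, 37 nuclear members are counted here with complex I, 8 with complex III, 18 with complex IV and 17 with complex V. Ndufa4 and its relative Ndufa4l2 stand under complex I by this count, although the Ndufa4 protein is known as a part of complex IV. The patterns leave out complex II, Cyc1 and Ndufab1, and they take in Cox7a2l, Atp5s and Atp5sl, which are not core subunits.

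The samples were embryoid bodies, free-floating aggregates of differentiating mouse embryonic stem cells, taken on day 3. All came from the A2loxCre line, which takes up a chosen coding sequence downstream of a doxycycline-inducible promoter, and the labels give the strain as C57BL/6. There were 7 groups of 3 samples. The parental group carried no construct and received doxycycline. The Twist1 monomer line was sampled without doxycycline, called uninduced here, and with it. Further doxycycline-treated lines carried a Twist1 homodimer or a dimer of Twist1 with TCF3, TCF4 or TCF12, and induction lasted 16 h. Twist1 belongs to the bHLH family of transcription factors, which bind DNA in pairs, and TCF3, TCF4 and TCF12 are E-proteins, the usual partners of tissue-specific bHLH factors. Whether each line was 1 clone, and whether the 3 samples of a group were separate cultures, was not given in the sources used here, so p-values measure only the spread between these samples.

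Oxidative phosphorylation couples electron transport to ATP synthesis in the inner mitochondrial membrane. Complex I takes electrons from NADH, complex III passes them from ubiquinol to cytochrome c, complex IV hands them to oxygen, and complex V, the ATP synthase, uses the proton gradient that the pumps build. A core of hydrophobic subunits is encoded in the small mitochondrial genome and made on mitochondrial ribosomes, and the other subunits are made in the cytosol and imported. Several complex IV subunits have isoforms restricted to muscle, lung or testis. Pluripotent cells are known for relying strongly on glycolysis, with a shift towards respiration as they differentiate.

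Total counts per library ranged from 6648842 to 15999693, with 18474 to 20883 genes detected. Tcf4 averaged 330 ± 22.6 CPM (counts scaled to a common library size with TMM factors; SD, n = 3) in the TCF4 dimer line and 33.2 to 52.1 CPM in the other groups. Tcf3 averaged 154 ± 4.53 CPM in the libraries labelled TCF3 dimer, below the 157 to 185 CPM of the other groups, and Tcf12 averaged 93.1 ± 34.8 CPM in those labelled TCF12 dimer against 54.1 to 104 CPM elsewhere. Since the partner genes do not single out these 2 sets, both are called by their labels. Without induction Twist1 averaged 5.07 CPM, against 8.11 ± 0.789 CPM for the parental group. In the induced lines it averaged 613 CPM for the monomer, 182 CPM for the homodimer and 55.2, 39.4 and 42.3 CPM for the TCF3, TCF4 and TCF12 sets. Summed markers of pluripotent and epiblast cells were at 2513 to 4779 CPM in all libraries, and the summed erythroid markers were at or below 1.15 CPM.

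Sample 1 labelled TCF12 dimer stood apart from the other 20 libraries. Nuclear members took 1.67% of its counts (95% Wilson interval 1.67 to 1.68%) and 0.966 to 1.12% in the others. Mitochondrial members took 1.40% there (1.39 to 1.41%) and 1.80 to 2.63% elsewhere. Because all groups share 1 estimate of the spread, this library touches every comparison below. Each result is therefore given from the fit of all 21 samples and from a fit of the 20 samples without it. Between these fits the biological coefficient of variation fell from 0.120 to 0.0539.

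The 13 mitochondrial members fell into separate levels of counting. Over the 21 libraries mt-Atp6 of the ATP synthase, mt-Co2 and mt-Co3 of complex IV and mt-Nd3 and mt-Nd4l of complex I had 3673, 3272, 1654, 551 and 241 counts. The other 8, mt-Nd1, mt-Nd2, mt-Nd4, mt-Nd5, mt-Nd6, mt-Cytb, mt-Co1 and mt-Atp8, had 79479 to 1884828 counts each. Per base of transcript the 5 low genes had 0.811 to 5.39 counts and the other 8 had 185 to 1220. The 5 low genes are those whose sequence lies nearly whole in a nuclear copy. Of the 50-base stretches of their transcripts, 98.0% (mt-Nd3) to 100% (mt-Co2) also occur in annotated unprocessed pseudogenes on chromosome 1, in GRCm38 sequence with the GENCODE M21 annotation. For mt-Nd4 the share was 62.2% and for mt-Co1 51.1%.

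The first 60 bases of mt-Co3 and mt-Nd3 and of their nuclear copies are shown because they make this likeness visible. The mt-Co3 gene (chrM:8607-9390, + strand) and Gm28437 (chr1:24613189-24613971, - strand) are identical over 783 bases. The mt-Nd3 gene (chrM:9459-9806, + strand) and Gm28438 (chr1:24612775-24613119, - strand) differ at 1 of 345 aligned bases, printed in capitals. The printed stretches are chrM:8607-8666, chr1:24613912-24613971, chrM:9459-9518 and chr1:24613060-24613119 of GRCm38, 5′ to 3′ on the strand of each gene.
mt-Co3: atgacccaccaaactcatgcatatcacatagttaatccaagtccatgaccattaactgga
Gm28437: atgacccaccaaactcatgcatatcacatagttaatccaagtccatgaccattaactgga
mt-Nd3: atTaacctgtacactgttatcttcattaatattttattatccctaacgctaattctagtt
Gm28438: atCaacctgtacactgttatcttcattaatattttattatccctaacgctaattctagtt
How the authors' counting treated a read that fits both places was not given in the sources used here. Values of these 5 members are therefore uncertain, and the plot of counts per base against shared sequence shows them apart from the other 8.

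**Figure D1:**
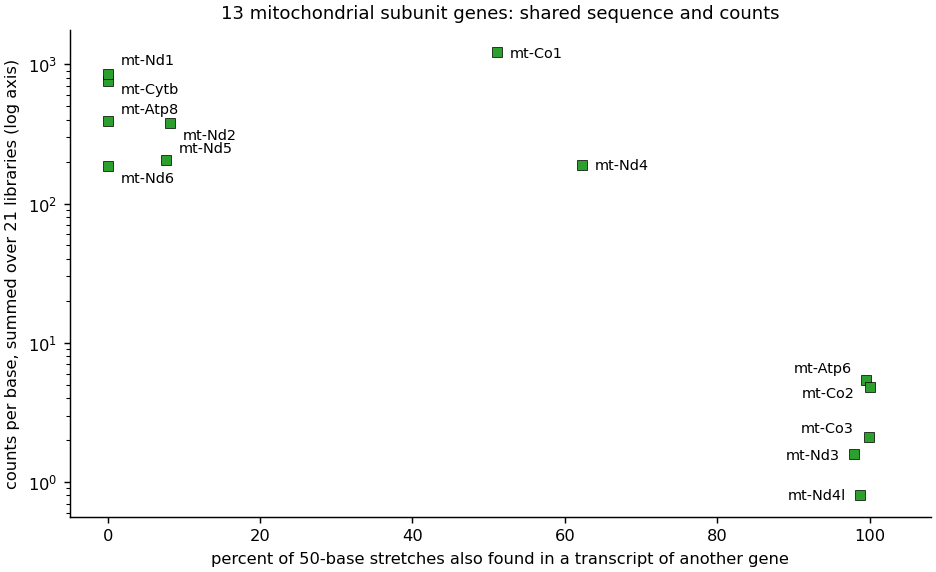
Counts per base of transcript, summed over 21 libraries (log axis), against the percent of 50-base stretches also present in a transcript of another gene, with 1 point per mitochondrial member. The 5 members with 98.0 to 100% shared sequence lie at 0.811 to 5.39 counts per base, and the other 8 at 185 to 1220.

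Median levels per kilobase in the parental line differed between the complexes. Nuclear members had a median of 43.7 CPM per kilobase in the genes counted with complex I (range 0.682 to 238 for Ndufa4, 37 genes), 110 in complex III (8 genes), 126 in complex IV (0 to 456, 18 genes) and 172 in complex V (2.16 to 993, 16 genes with a length). The ranges of complexes I, IV and V overlap widely. The levels also depend on lengths that join the exons of a gene's transcripts, such as 4375 bases for Ndufb2 (0.682) and 4912 bases for Atp5g1 (24.7). Named after their levels were seen, the highest was Atp5b, the catalytic beta subunit of the ATP synthase head, at 993 CPM per kilobase. Then came Cox4i1, the widely expressed form of complex IV subunit 4, at 456, Atp5g3, 1 of 3 genes for the membrane ring of the ATP synthase, at 415, and Atp5a1, the alpha subunit of the head, at 393. Among mitochondrial members without a near-complete copy, mt-Co1, the catalytic subunit of complex IV, was highest at 4865 CPM per kilobase. Then came mt-Nd1 (4003), mt-Cytb (3345), mt-Nd2 (1848), mt-Atp8 (1794), mt-Nd5 (887), mt-Nd4 (789) and mt-Nd6 (775). These values divide by the full length. For mt-Co1 and mt-Nd4, 51.1 and 62.2% of the 50-base stretches also occur in other genes, so their places in this order are uncertain. The libraries were made with an mRNA kit, and the mt-Nd6 gene lies on the strand opposite mt-Nd5, so without known strand handling their overlapping reads cannot be told apart.

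Nuclear members took a slightly larger share of counts in 4 of the 6 other groups than in the parental line. The parental samples stood at 0.993, 0.970 and 0.977% of counts, with a mean of 0.980 ± 0.0117% (SD, n = 3). The mean was 1.08 ± 0.0407% in the uninduced monomer line, 1.07 ± 0.0332% with doxycycline and 1.04 ± 0.0267% in the homodimer line. The set labelled TCF3 dimer averaged 1.08 ± 0.00951% and the TCF4 dimer samples 0.980 ± 0.0201%. All samples of the monomer line, the homodimer line and the set labelled TCF3 dimer lay above all parental samples, and the TCF4 dimer samples overlapped them. The samples labelled TCF12 dimer stood at 1.67, 1.06 and 0.973%.

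Mitochondrial members took 2.09 ± 0.120% of counts in the parental line, at 2.14, 2.19 and 1.96%. The induced monomer samples, at 2.32, 2.50 and 2.47%, all lay above them, and the uninduced samples stood at 2.14, 2.52 and 2.63%. The homodimer line averaged 1.99 ± 0.0830%, the TCF4 dimer line 2.10 ± 0.201% and the set labelled TCF3 dimer 2.09 ± 0.258%. The samples labelled TCF12 dimer stood at 1.40, 2.25 and 2.34%, on both sides of the parental range. These are bulk samples, in which fewer cells of a type and less RNA per cell cannot be told apart.

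**Figure D2:**
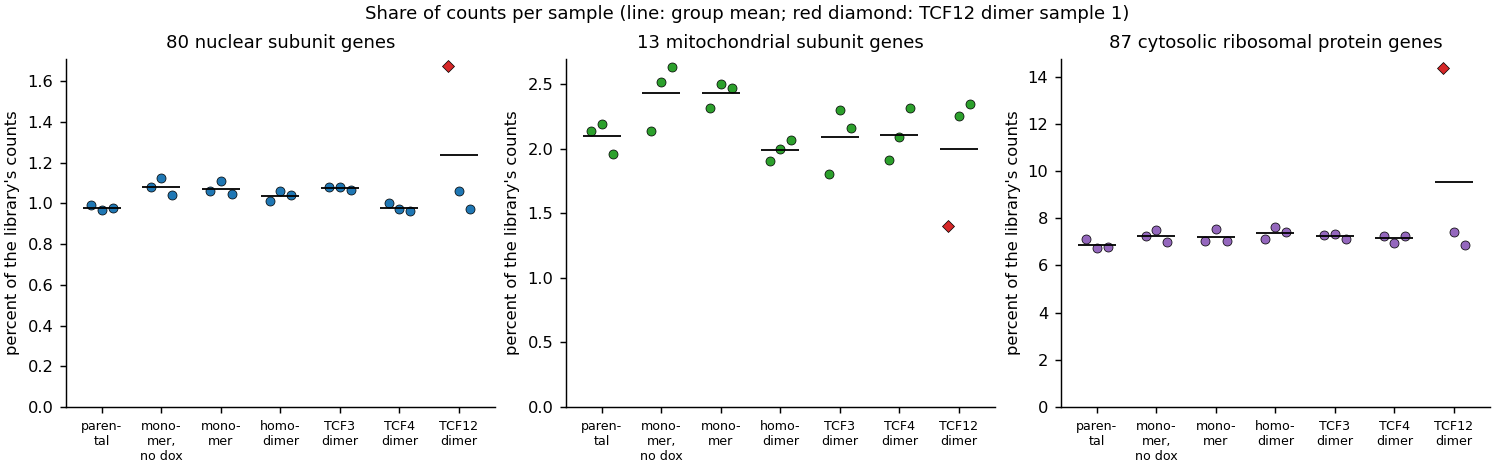
Share of each library's counts (percent) taken by mitochondrial and by nuclear members, with 1 point per sample, a line for each group mean and a red diamond for sample 1 labelled TCF12 dimer. That sample is the highest for nuclear members at 1.67% and the lowest for mitochondrial members at 1.40%.

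Nuclear members have short transcripts, with a median exonic length of 875 bases (79 genes) against 3506 bases for the 8953 genes that averaged 10 CPM or more. The cytosolic ribosomal protein genes have a median of 943 bases. Each sample was therefore compared, gene by gene, with the mean of the other samples of its group. In sample 1 labelled TCF12 dimer this deviation fell with transcript length (Spearman's rho across 8953 genes -0.765, given as a description). Median deviations were 1.29 on the log2 scale for genes under 500 bases, 0.90 for 1000 to 1500 bases, -0.09 for 3000 to 4000 bases and -0.95 from 8000 bases.

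In that library 69 of 71 nuclear members lay above their group, with a median of 1.24, or 2.37-fold, and a range from -0.18 (Uqcrc2, a core protein of complex III) to 1.85 (Atp5e, the epsilon subunit of the ATP synthase). The cytosolic ribosomal protein genes had a median of 1.27 and took 14.4% of its counts, against 6.73 to 7.62% in the other libraries. Set against all genes of their own length bin, 56 of 70 nuclear members lay above the bin's median, by a median of 0.21 (range -0.75 to 1.71). The bins use exons joined over a gene's transcripts, which places Atp5g1 (deviation 1.31) at 4912 bases and Uqcrq (1.44) at 1827 bases. Most mitochondrial members went the other way, and of the 10 that averaged 10 CPM or more 7 lay below their group and 3 above. The median deviation of these 10 was -0.25, from -1.73 for mt-Atp8 to 1.10 for mt-Co2. None of the 8 without a near-complete copy lay above the median of its length bin (median difference -1.19). What in this library moves with transcript length was not tested.

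**Figure D3:**
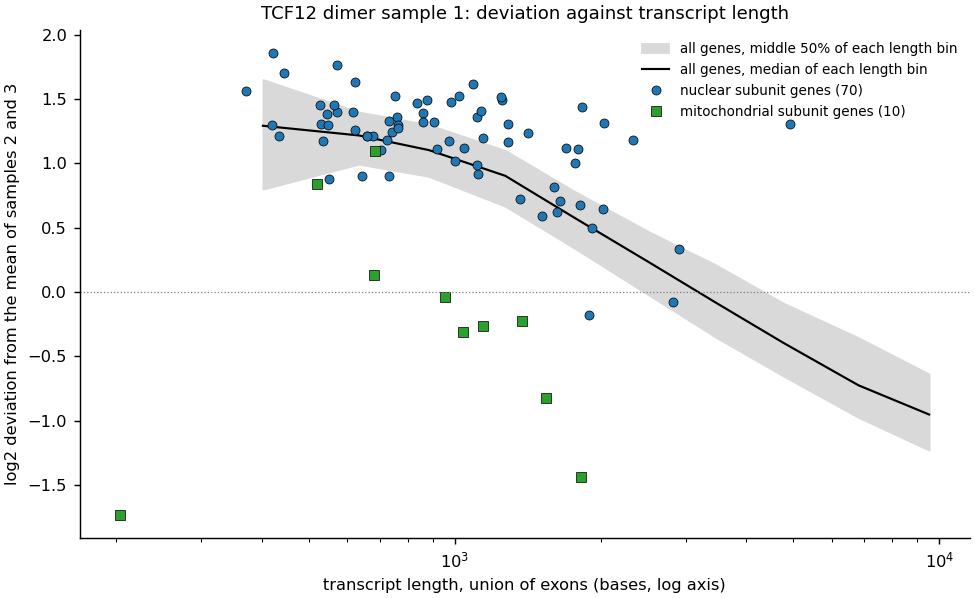
Log2 deviation of sample 1 labelled TCF12 dimer from the mean of samples 2 and 3 against transcript length in bases (log axis), with the median and interquartile range of all genes per length bin and 1 marker per member. Nuclear members follow the rise of short genes, with a median of 1.24, and mitochondrial members lie below genes of their length.

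Sample 1 of the uninduced monomer line deviated far less with transcript length. Its rho was -0.427, within the size seen in parental sample 1 (-0.417) and induced monomer sample 2 (-0.465). Its nuclear members had a median deviation of 0.09 and its mitochondrial members one of -0.20. Taken over genes in general, this sample did stand apart from its group. Chi-square per degree of freedom, a measure of how far the counts of 2 libraries differ, was 35.5 and 39.7 against samples 2 and 3. It was 85.9 and 105 for sample 1 labelled TCF12 dimer and 1.42 to 3.80 for pairs without either library. Sample 1 of the uninduced monomer line had the lowest total count. It also had 0.316% of its counts in the mitochondrial ribosomal RNAs mt-Rnr1 and mt-Rnr2, against 0.0484 to 0.107% in the other 20 libraries. Counts of passing members without both libraries are given in the closing part. Fold changes of most single members are not given without this sample.

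Nuclear members were higher in the Twist1 monomer line than in the parental line, both without and with doxycycline. In the fit of 21 samples the median log2 fold change was 0.23 for the uninduced and 0.18 for the induced line, while the median of all genes lay between -0.01 and 0.02 in each comparison of 2 groups. Only Ndufs1, a core subunit of complex I that carries iron-sulfur clusters, passed in each comparison (edgeR quasi-likelihood test, Benjamini-Hochberg adjusted p under 0.05). The background was 19.9% of all genes for the uninduced line and 20% for the induced line. With 20 samples 46 of 76 nuclear members rose and 1 fell in the uninduced line, where 36.8% of all genes passed and 18.7% rose. In the induced line 37 rose and 1 fell, where 35.2% passed and 18.1% rose, and the medians were 0.22 and 0.17. A fit of only the groups compared, which leaves out all libraries labelled TCF12 dimer, gave 49 and 40 calls among 75 tested members. The share of all genes passing in those fits is not given here, so these calls have no background. Both comparisons share the parental samples. With 21 samples, leaving out 1 library ended the Ndufs1 call in the induced line in 15 of 21 cases and in the uninduced line in 3, those of parental sample 3 and uninduced samples 2 and 3 (log2 fold changes 0.20, 0.20 and 0.20).

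The rise in the uninduced line ran through all 4 complexes in the fit of 20 samples, with 18 of 37 complex I members, 4 of 8 in complex III, 10 of 14 tested in complex IV and 14 of 17 in complex V. The induced line had 16, 3, 8 and 10 in the same order. Ndufs1 stood at 125, 124 and 120 CPM in the parental samples, at 138, 147 and 146 CPM in the uninduced and at 144, 139 and 138 CPM in the induced samples. All monomer line samples lay above all parental samples, with log2 fold changes of 0.22 ± 0.06 (SE; adjusted p 0.0158) and 0.19 ± 0.06 (adjusted p 0.039, edgeR, 21 samples). Over 76 tested nuclear members, 52 had all uninduced samples above all parental samples, against 24.1% of all genes. For the induced samples the count was 45, against 24.2%.

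The large, highly expressed head subunits of the ATP synthase, named after their values were seen, show the size of the difference. Atp5b stood at 1902, 1909 and 1895 CPM in the parental samples, at 2268, 2263 and 2128 CPM in the uninduced and at 2140, 2204 and 2101 CPM in the induced samples. Atp5a1 stood at 1135, 1143 and 1142 CPM, then at 1339, 1368 and 1265 CPM and at 1330, 1330 and 1291 CPM. The groups did not overlap for either gene. For Atp5b the log2 fold changes were 0.22 ± 0.04 and 0.17 ± 0.04 (SE; adjusted p 3.34e-05 and 0.000838, edgeR, 20 samples), and for Atp5a1 they were 0.21 ± 0.04 and 0.20 ± 0.04 (adjusted p 0.000104 and 0.000205). In the fit of 21 samples the same folds did not pass (adjusted p 0.116 and 0.232 for Atp5b, 0.0504 and 0.0596 for Atp5a1).

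Larger folds were found among small subunits. Cox6c, a nuclear subunit of complex IV, stood at 122, 106 and 105 CPM in the parental samples, at 163, 151 and 141 CPM in the uninduced and at 141, 175 and 160 CPM in the induced samples. It rose by 0.44 ± 0.07 and 0.51 ± 0.07 on the log2 scale (adjusted p 3.8e-06 and 2.27e-07, edgeR, 20 samples), with no overlap between lines. In the fit of 21 samples it did not pass (adjusted p 0.22 and 0.144). Cox6c was named after its values were seen. Cox7b, a complex IV subunit, stood at 142 to 145 CPM in the parental, 170 to 199 CPM in the uninduced and 171 to 192 CPM in the induced samples, and Cox8a at 146 to 153, 182 to 201 and 170 to 180 CPM.

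Transcript length moved with part of this difference. In the uninduced line, without sample 1 labelled TCF12 dimer, the fold change fell with length (rho -0.269 across 8953 genes). The 38 nuclear members under 1000 bases had a median of 0.22 and the other 254 genes of that length one of 0.13. The 32 members of 1000 bases or more had a median of 0.22, and the other 8464 genes of that length one of -0.0030. In the induced line the medians were 0.17 against 0.09 for short and 0.19 against 0.01 for long genes. Length here joins the exons of a gene's annotated transcripts, so members called long, here and below, may include short transcripts. Atp5g1, at 4912 bases, deviated by 1.31 in sample 1 labelled TCF12 dimer, where genes of 4000 to 6000 bases had a median of -0.40. The part of such lengths in these medians was not tested. With a length trend fitted for each sample and removed, all 21 samples gave medians of 0.09 for the uninduced and 0.10 for the induced line. That fit gave 14 and 9 calls among 76 tested members, and the share of all genes passing in it is not given here.

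Other gene groups moved beside the members in these comparisons. Of 84 tested cytosolic ribosomal protein genes 45 rose in the uninduced line (median 0.15, 20 samples), and of 76 mitochondrial ribosomal protein genes 24 rose and 1 fell (median 0.10). In the induced line 28 cytosolic genes rose (median 0.10), and 8 mitochondrial ones rose and 5 fell. Summed markers of primitive streak and mesoderm stood at 167 to 195 CPM in the parental samples and at 26.9 to 46.1 CPM in all others. The sum hides markers that moved the other way, since 3 of its 6 tested genes rose and 3 fell in each heterodimer set (edgeR, 21 samples). Summed endoderm markers stood at 143 to 174 CPM in the monomer line, 49.5 to 54.8 CPM in the parental line and 18.4 to 95.2 CPM elsewhere. The part of these cell populations in the members' values was not tested. The uninduced and parental samples also differ in doxycycline, a tetracycline that acts on mitochondrial ribosomes as well as bacterial ones, and line and doxycycline cannot be told apart there.

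Between the induced and uninduced monomer line, where the line is the same, no nuclear member passed (edgeR, 21 samples), and the background was 2.00%. At an unadjusted p under 0.05 there were also 0, and DESeq2 called 0. The median log2 fold change was -0.05. Without sample 1 labelled TCF12 dimer 0 passed again and 8 had an unadjusted p under 0.05, where 6.17% of all genes passed. Members of 1000 bases or more had a median of -0.04 and the other genes of that length one of 0.00046.

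**Figure D4:**
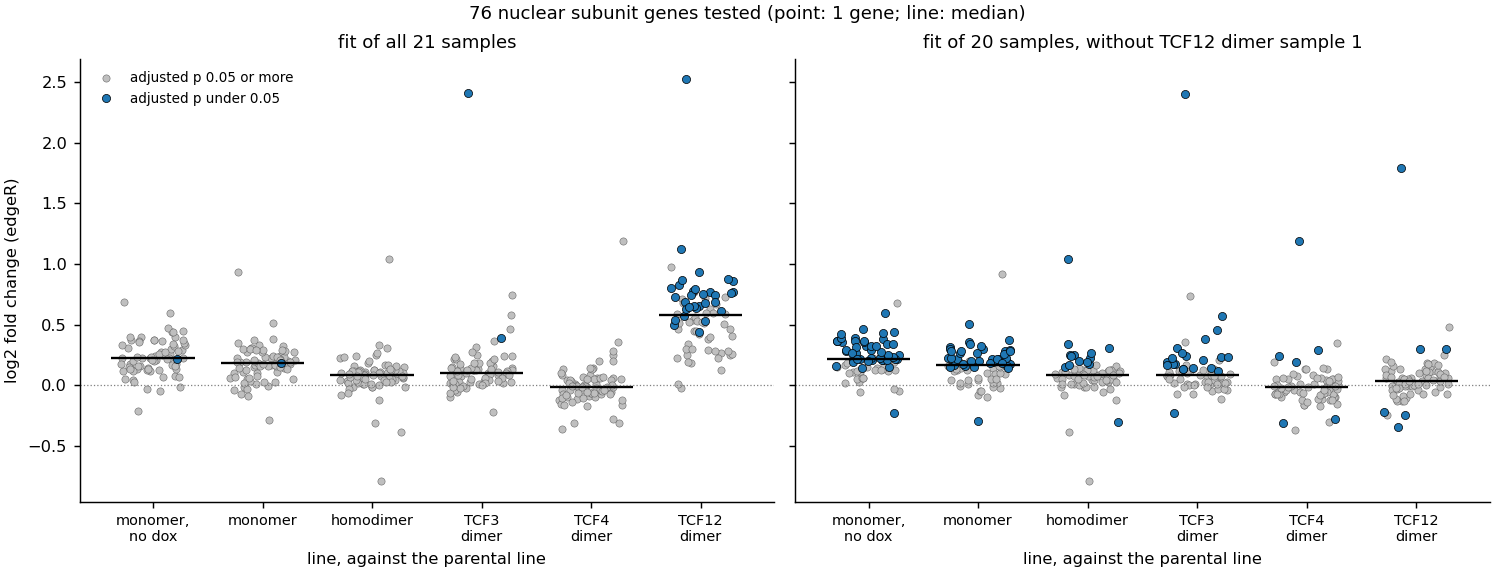
Log2 fold change of each of 76 tested nuclear members against the parental line for 6 lines, from all 21 samples and from 20 samples without sample 1 labelled TCF12 dimer, with passing members in blue and the median as a line. In the set labelled TCF12 dimer the median goes from 0.58 to 0.04, and in the uninduced monomer line 1 passing member becomes 47.

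In the homodimer line no nuclear member passed in the fit of 21 samples, where 8.84% of all genes did. At an unadjusted p under 0.05 there were 0, and DESeq2 called 0. The median was 0.08. With 20 samples 13 rose and 1 fell, where 20.4% of all genes passed, and the median was 0.09. The other genes of 1000 bases or more had a median of -0.0079 and the members of that length one of 0.09. Under 1000 bases the members had a median of 0.08 and the other genes one of 0.07. In the same fit 22 of 84 cytosolic ribosomal protein genes rose.

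In the TCF4 dimer line no nuclear member passed with 21 samples, where 12.9% of all genes did, with 1 at an unadjusted p under 0.05 and 0 called by DESeq2. The median was -0.01. With 20 samples 4 rose and 2 fell, where 28.1% of all genes passed. Members of 1000 bases or more had a median of -0.01, and the other genes of that length one of 0.0012.

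In the libraries labelled TCF3 dimer, whose Tcf3 count was not raised, 2 nuclear members rose in the fit of 21 samples, Cox4i2 among them, where 28.3% of all genes passed. With 20 samples 20 rose and 1 fell, where 46.5% passed and 24.0% rose. The medians were 0.10 and 0.09. The fold change did not move with length in this comparison (rho 0.0026 across 8953 genes). The members of 1000 bases or more had a median of 0.10 and the other genes of that length one of -0.0072. With 21 samples the Cox4i2 call held whichever library was left out.

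In the libraries labelled TCF12 dimer, 31 of 76 nuclear members rose in the fit of 21 samples, with a median of 0.58. The background was 27.0% in both directions and 15.5% for rises. Without sample 1, 3 rose and 3 fell, where 30.3% of all genes passed, and the median was 0.04. Of the 31 calls 28 were lost, and Cox4i2 and Ndufv3 were among those that passed in both fits. Without sample 3 of the set 68 passed, and without parental sample 2 only 3. With the 2 groups fitted alone, 0 members passed, and with the length trend removed 25 did, with a median of 0.15. The shares of all genes passing in these other fits are not given here. Cytosolic ribosomal protein genes moved alike, with 56 of 84 rising in the fit of 21 samples (median 0.61) and 5 rising and 1 falling without sample 1.

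Atp5e, Ndufb7 and Ndufv3 were the named members with the largest rises there at 5 CPM or more. Atp5e stood at 74.99, 64.2 and 72.9 CPM in the parental samples and at 299, 87.8 and 77.2 CPM in the samples labelled TCF12 dimer. Its log2 fold change was 1.12 ± 0.32 (SE; adjusted p 0.0156, edgeR) with and 0.22 ± 0.09 (adjusted p 0.0716) without sample 1. Ndufb7, an accessory subunit of complex I, stood at 71.4, 66.0 and 65.8 CPM and at 237, 72.9 and 79.5 CPM. Its log2 fold change was 0.93 ± 0.29 (adjusted p 0.0237) with and 0.17 ± 0.10 (adjusted p 0.201) without that sample.

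Taking the 3 heterodimer sets together against the homodimer, 0 nuclear members passed with 21 samples, where 14.0% of all genes did. There were 3 at an unadjusted p under 0.05, and DESeq2 called 0. The median was 0.14, and it turned to -0.06 without sample 1 labelled TCF12 dimer. In that fit Cox4i2 rose and 6 members fell, where 28.9% of all genes passed. These were Atp5d (-0.17), Cox7b (-0.16), Cox7c (-0.15), Atp5sl (-0.14), Atp5g1 (-0.13) and Atp5o (-0.12 on the log2 scale), named as all calls of that fit after their values were seen. The other genes under 1000 bases had the same median as the members of that length, -0.06.

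Across all 7 groups tested together, 8 nuclear members passed with 21 samples, where 50.7% of all genes did. With 20 samples 60 passed, where 73.4% of all genes did, and 6 members passed in both fits. Among these 6 were Cox4i2, Ndufs1, Ndufv3, Ndufa13 and Ndufa4l2, and the 2 lost were Ndufb7 and Atp5s. Leaving out other libraries gave 4 to 70 calls, the highest without sample 3 labelled TCF12 dimer. Ndufa13 shares 30.0% of its exonic bases with Tssk6 on the opposite strand, so its reads are uncertain. Ndufa4l2, a low-level relative of the complex IV protein Ndufa4, ranged from 0.309 to 2.73 CPM over the 21 samples and passed in no comparison of 2 groups in either fit (adjusted p across the groups 0.0459 and 0.0116, edgeR).

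Ndufv3 (chr17:31520115-31531331, + strand) belongs to the catalytic part of complex I, beside the NADH-binding subunits. It stood at 43.2, 46.2 and 49.3 CPM in the parental samples and at 75.3, 63.0 and 69.2 CPM in the set labelled TCF3 dimer. The uninduced samples were at 59.9, 61.9 and 57.1 CPM, the induced monomer samples at 60.1, 63.7 and 53.3 CPM and the homodimer samples at 59.2, 54.7 and 53.2 CPM, all above the parental ones. The samples labelled TCF12 dimer were at 142, 62.2 and 51.8 CPM, and the TCF4 dimer samples at 48.8, 48.4 and 48.2 CPM, within the parental range. The log2 fold change in the set labelled TCF3 dimer was 0.58 ± 0.23 (SE; adjusted p 0.0709, edgeR, 21 samples) and 0.57 ± 0.08 with 20 samples (adjusted p 2.61e-07). With 20 samples it also rose in the uninduced (0.36), induced monomer (0.34) and homodimer (0.27) lines and in the set labelled TCF12 dimer (0.30), and of these the last alone passed with 21 (0.87, adjusted p 0.00981, edgeR). Tests of the lines against each other were not run for single lines.

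Ndufs4 was the member that went the other way in 20 samples. It encodes an accessory subunit of complex I needed for stable attachment of its NADH-oxidising arm, and lies at chr13:114287795-114388258, - strand. It was named after its values were seen, as the single member that fell in the uninduced, monomer and homodimer lines and in the set labelled TCF3 dimer. The parental samples stood at 73.4, 69.7 and 73.6 CPM. The uninduced samples were at 66.9, 60.01 and 60.5 CPM, the induced monomer samples at 57.1, 61.0 and 59.5 CPM and the homodimer samples at 57.0, 58.2 and 59.98 CPM. Those labelled TCF3 dimer were at 61.5, 66.5 and 58.5 CPM, the TCF4 dimer samples at 58.1, 59.5 and 57.5 CPM and those labelled TCF12 dimer at 133, 62.8 and 59.2 CPM.

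Apart from sample 1 labelled TCF12 dimer, all constructs' samples lay below all parental samples for Ndufs4. The log2 fold changes lay between -0.22 and -0.31 in the 6 comparisons with the parental line, with adjusted p between 9.51e-05 and 0.00351 (edgeR, 20 samples). In the fit of 21 samples none passed, the homodimer value was -0.31 ± 0.19 (SE; adjusted p 0.45), and the value of the set labelled TCF12 dimer turned to 0.23 ± 0.19 (adjusted p 0.383). The 6 comparisons share the 3 parental samples, and the summed streak and mesoderm markers above also separate the parental samples from the others, though 3 of the 6 tested genes rose in each heterodimer set. The part of those cells in this difference was not tested.

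Uqcrq, a small subunit of complex III, was named after its values were seen because it rose in some lines and fell in others. It stood at 65.6, 57.6 and 59.1 CPM in the parental, 80.2, 85.6 and 64.7 CPM in the uninduced and 78.6, 78.0 and 66.9 CPM in the induced monomer samples. The TCF4 dimer samples were at 53.2, 49.2 and 48.5 CPM and those labelled TCF12 dimer at 130, 50.9 and 45.0 CPM. With 20 samples it rose by 0.33 ± 0.09 (SE) and 0.28 ± 0.09 on the log2 scale in the uninduced and induced monomer line (adjusted p 0.00337 and 0.0103, edgeR). It fell by 0.28 ± 0.09 in the TCF4 dimer line (adjusted p 0.0157) and by 0.35 ± 0.10 in the set labelled TCF12 dimer (adjusted p 0.00708). None of these passed with 21 samples.

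Cox4i2 gave the largest fold changes of any nuclear member. It encodes the second isoform of complex IV subunit 4, known from lung and from cells short of oxygen, and lies at chr2:152754173-152765037, + strand, with 788 exonic bases. The parental samples stood at 0.545, 0.542 and 0.908 CPM and those labelled TCF3 dimer at 3.64, 3.88 and 3.33 CPM. The TCF4 dimer samples were at 2.20, 1.198 and 1.28 CPM, those labelled TCF12 dimer at 7.45, 2.38 and 2.34 CPM and the homodimer samples at 0.971, 1.53 and 1.65 CPM. The uninduced samples were at 0.813, 0.523 and 0.977 CPM and the induced monomer samples at 0.910, 0.788 and 0.752 CPM. All dimer samples lay above all parental samples, and the monomer line overlapped them. The counts behind these values were 5 to 71 per library, and 3 counts correspond to 0.182 to 0.488 CPM.

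In the fit of 21 samples Cox4i2 rose by 2.41 ± 0.46 on the log2 scale in the set labelled TCF3 dimer and by 2.52 ± 0.46 in that labelled TCF12 dimer (SE; adjusted p 0.000549 and 0.000486, edgeR). With 20 samples they were 2.40 ± 0.29 (adjusted p 5.25e-08) and 1.79 ± 0.34 (adjusted p 0.000124). The TCF4 dimer line had 1.19 ± 0.34 (adjusted p 0.008) and the homodimer line 1.04 ± 0.36 (adjusted p 0.0382) with 20 samples, and neither passed with 21 (adjusted p 0.157 and 0.324). The 3 heterodimer sets together exceeded the homodimer by 0.75 ± 0.23 with 20 samples (adjusted p 0.0127) and by 1.00 ± 0.35 with 21 (adjusted p 0.0662).

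Against its partner the isoform stayed rare. Per base, Cox4i2 made up 0.184 ± 0.0559% of the Cox4i1 and Cox4i2 pair in the parental line (SD, n = 3), 0.930 ± 0.0430% in the set labelled TCF3 dimer and 0.672 ± 0.100% in that labelled TCF12 dimer. It made up 0.416 ± 0.139% with the TCF4 dimer and 0.344 ± 0.0844% with the homodimer. Cox4i1 stood at 353, 340 and 353 CPM in the parental samples and at 384, 381 and 356 CPM in the set labelled TCF3 dimer. The ratio within sample 1 labelled TCF12 dimer, 0.787%, was close to those of samples 2 and 3, 0.603 and 0.626%, while its Cox4i1 was at 912 CPM against 381 and 360 CPM there.

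**Figure D5:**
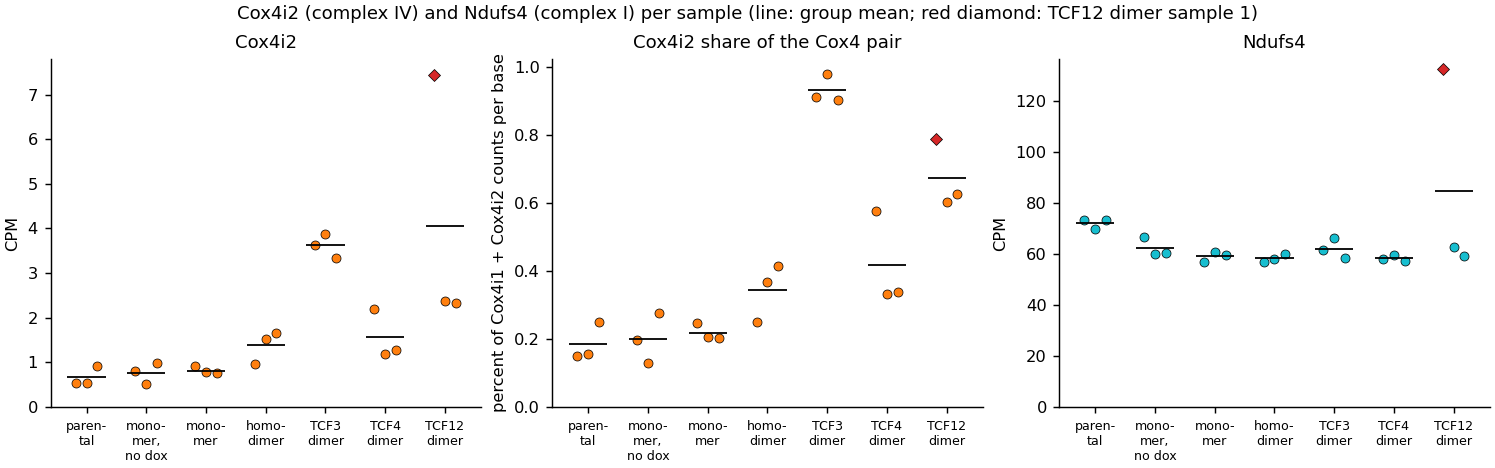
Levels in CPM (linear axis from 0) of Cox4i2 and of Ndufs4, with the share of Cox4i2 in the Cox4i1 and Cox4i2 pair (percent of counts per base) between them, in each sample by group, with a line for the group mean and a red diamond for sample 1 labelled TCF12 dimer. Cox4i2 is at 3.33 to 3.88 CPM in the set labelled TCF3 dimer against 0.542 to 0.908 CPM in the parental line, and Ndufs4 is at 69.7 to 73.6 CPM in the parental line.

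The muscle and testis isoforms of complex IV ranged from no counts to a few percent of their pair. Cox8b, the muscle form of subunit 8, had 0 counts in 21 libraries and Cox6a2, the muscle form of subunit 6a, had 1. Cox8c and Cox7b2, known from testis, had 22 and 90. These 4 were the nuclear members that the filter on low counts kept out of the main fit. Cox7a1, the muscle form of subunit 7a, was at 3.83 to 4.58 CPM in the parental samples and 5.18 to 6.48 CPM in the uninduced samples. It rose by 0.47 ± 0.17 there (SE, log2; adjusted p 0.0305, edgeR, 20 samples) but not with 21 samples (adjusted p 0.364). Cox6b2, the testis form of subunit 6b, was at 9.08 to 10.9 and 12.4 to 13.7 CPM in the same groups and rose by 0.33 ± 0.12 (adjusted p 0.0283, 20 samples). It did not pass with 21 samples (adjusted p 0.397). Per base Cox6b2 made up 5.16 to 6.70% of the Cox6b1 and Cox6b2 pair on group average, and Cox7a1 4.504 to 6.24% of the Cox7a1 and Cox7a2 pair. Summed markers of cardiac and skeletal muscle were at 12.9 to 19.7 CPM over all libraries.

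Atp5g1, Atp5g2 and Atp5g3 encode the same mature ring subunit of the ATP synthase with different import signals. Atp5g1 stood at 127, 118 and 120 CPM in the parental and at 167, 163 and 151 CPM in the uninduced samples, with no overlap. It rose by 0.39 ± 0.06 (SE, log2; adjusted p 4.97e-06, edgeR, 20 samples), and 0.40 ± 0.23 did not pass with 21 samples (adjusted p 0.25). Atp5g2 stood at 169, 162 and 160 CPM and at 176, 151 and 153 CPM, which overlap. Atp5g1 went from 20.8% of the 3 genes' summed counts in the parental line to 23.9 ± 0.24% in the uninduced line, and Atp5g2 from 27.9 to 23.8%. The induced monomer line had 22.3 and 25.1%. Parts of the Atp5g1 and Atp5g2 transcripts, 11.6 and 14.8% of their 50-base stretches, also occur in other genes.

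Of the 13 mitochondrial members 7 are subunits of complex I. Across the 7 groups 5 of 13 passed with 21 samples, mt-Nd1, mt-Nd2, mt-Nd4, mt-Nd6 and mt-Cytb, against 50.7% of all genes. With 20 samples 10 passed, among them all 8 without a near-complete copy, against 73.4%. In the monomer line mt-Nd4, a proton-pumping subunit of complex I, rose by 0.33 ± 0.11 (uninduced) and 0.38 ± 0.11 (induced; SE, log2; adjusted p 0.0421 and 0.0207, edgeR, 21 samples). It stood at 1078, 1181 and 1004 CPM in the parental, 1240, 1408 and 1456 CPM in the uninduced and 1302, 1489 and 1446 CPM in the induced samples. No samples overlapped between the lines. With 21 samples, leaving out 1 library ended the mt-Nd4 call in 13 of 21 cases for the uninduced and in 4 for the induced line, with log2 fold changes of 0.27 to 0.37 in those cases. With 20 samples 6 of 13 mitochondrial members rose in each of these comparisons. Of all genes 18.7% rose in the uninduced and 18.1% in the induced line in that fit. The members that rose in both were mt-Co1, mt-Nd1, mt-Nd4 and mt-Nd5, while mt-Co3 and mt-Nd6 rose in the uninduced and mt-Cytb and mt-Atp8 in the induced line.

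The complex I members mt-Nd1 and mt-Nd2, which lie side by side on the mitochondrial genome, were lower in the homodimer line and in the set labelled TCF3 dimer. For mt-Nd1 the parental samples stood at 3992, 3923 and 3578 CPM, the homodimer samples at 3007, 3220 and 3292 CPM and those labelled TCF3 dimer at 2930, 3512 and 3221 CPM. For mt-Nd2 they stood at 2084, 1906 and 1764 CPM, 1341, 1489 and 1543 CPM, and 1291, 1566 and 1457 CPM. Neither gene's samples overlapped the parental ones. In the homodimer line mt-Nd1 fell by 0.27 ± 0.08 (SE, log2) and mt-Nd2 by 0.40 ± 0.11 (adjusted p 0.0419 and 0.0228, edgeR, 21 samples). In the set labelled TCF3 dimer they fell by 0.25 ± 0.08 and 0.42 ± 0.11 (adjusted p 0.0265 and 0.00625). Both falls passed again with 20 samples in both comparisons. Without sample 1 labelled TCF3 dimer, the lowest of its set, the values there were -0.17 (adjusted p 0.187) and -0.33 (adjusted p 0.0572). In the homodimer line the mt-Nd1 call ended in 9 of 21 cases with 1 library left out and that of mt-Nd2 in 4.

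The complex IV gene mt-Co1 did not fall with them. It stood at 7587, 8004 and 6957 CPM in the parental, 7814, 8180 and 8036 CPM in the homodimer and 7365, 9838 and 9033 CPM in the samples labelled TCF3 dimer, and all overlapped. It did not pass in the homodimer line in either fit, and it rose by 0.21 ± 0.07 (SE, log2; adjusted p 0.0148, edgeR) in the set labelled TCF3 dimer with 20 samples only. The transcript mt-Nd3, whose count may include its nuclear copy, fell by 0.84 ± 0.29 in that set (adjusted p 0.0352, 21 samples), at 1.74 to 1.87 CPM against 2.22 to 4.25 CPM in the parental line. Leaving out parental sample 1 or 2 or any 1 of the samples labelled TCF3 dimer ended the call, with values of -0.61 to -0.86 (adjusted p 0.0681 to 0.195). In the TCF4 dimer line no mitochondrial member passed with 21 samples, with 1 at an unadjusted p under 0.05 and 1 called by DESeq2. With 20 samples mt-Nd1 fell there by 0.21 ± 0.06 (adjusted p 0.00661).

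In the set labelled TCF12 dimer mt-Nd6 rose by 0.53 ± 0.16 (SE, log2; adjusted p 0.023, edgeR, 21 samples), but its samples stood at 825, 461 and 460 CPM, and without sample 1 the value was 0.19 ± 0.08 (adjusted p 0.0783). In that library mt-Nd5, the gene on the other strand, stood at 702 CPM against 1833 and 1975 CPM in samples 2 and 3. Between the induced and uninduced monomer line, and between the heterodimer sets and the homodimer, 0 mitochondrial members passed with 21 samples, 0 had an unadjusted p under 0.05 and DESeq2 called 0. With 20 samples mt-Nd6 was lower in the induced line by 0.25 ± 0.07 (adjusted p 0.0405), and mt-Nd2 was higher in the heterodimer sets by 0.17 ± 0.06 (adjusted p 0.029).

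Genes that serve the complexes without being subunits were read from fixed lists. Of 24 tested genes for the upkeep and expression of mitochondrial DNA, 8 fell and 0 rose in the set labelled TCF3 dimer with 21 samples (median -0.17). These are 33.3% of the list, where 28.3% of all genes passed and 12% fell. With 20 samples 14 fell and 1 rose, where 46.5% passed. The falls with 21 samples included Tfam (-0.23), which packages mitochondrial DNA, Lrpprc (-0.23), which stabilises mitochondrial mRNA, and Fastkd1 (-0.38), an RNA-binding protein. In the homodimer and TCF4 dimer lines 8 fell and 0 rose with 20 samples, where 20.4 and 28.1% of all genes passed. With 21 samples 1 and 3 fell, where 8.84 and 12.9% passed. The TCF4 dimer counts lie near these shares. In the set labelled TCF12 dimer 6 fell and 1 rose with 21, near the 27.0% of all genes that passed. In the monomer line 3 fell with doxycycline and 1 without it, where 20% and 19.9% of all genes passed. The monomer line counts are smaller shares than these. Of 9 tested nuclear regulators, 3 fell in the set labelled TCF3 dimer with 21 samples, Ppargc1b (-0.86) and Pprc1 (-0.40), coactivators of the PGC-1 family, and Yy1 (-0.30). That is 33.3% of this short list, near the 28.3% of all genes. With 20 samples Nrf1 rose there as well (0.14). Myc rose in the uninduced (0.55) and induced (0.53) monomer line and fell in the TCF4 dimer line (-0.36) and the set labelled TCF12 dimer (-0.31).

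Of 37 tested assembly factors, 2 rose and 1 fell in the set labelled TCF3 dimer with 21 samples, and 5 rose and 4 fell with 20. Both are smaller shares than the 28.3 and 46.5% of all genes that passed. Ndufaf4, which helps to build complex I, fell there (-0.50), in the homodimer line (-0.34) and in the TCF4 dimer line (-0.30 on the log2 scale, 21 samples). Of 12 tested genes for complex II and the electron carriers, 0 to 1 passed in each comparison with the parental line with 21 samples, apart from 3 rises in the set labelled TCF12 dimer that were lost without its sample 1. Of all genes 8.84 to 28.3% passed in these comparisons. Of 6 tested carrier and supercomplex genes, 2 rose and 1 fell in each heterodimer set with either fit. In the order TCF3, TCF4 and TCF12 dimer, 28.3, 12.9 and 27.0% of all genes passed with 21 samples. With 20 samples the shares were 46.5, 28.1 and 30.3%. Slc25a4, which exchanges ADP for ATP across the inner membrane, rose by 0.99 in the set labelled TCF3 dimer, by 0.54 with the TCF4 dimer, by 0.49 in the induced monomer samples and by 1.28 in the set labelled TCF12 dimer (0.89 without sample 1). In the homodimer line its value was 0.52 and missed the threshold with 21 samples (adjusted p 0.0605, edgeR), while it passed with 20 (adjusted p 3.99e-08). In the uninduced line it was 0.27 (adjusted p 0.301), and 0.26 passed with 20 samples (adjusted p 0.000737). Ucp2, an inner membrane carrier, fell by 0.35 in the set labelled TCF3 dimer, by 0.62 in the TCF4 dimer line, by 0.64 in that labelled TCF12 dimer and by 0.52 in the homodimer line.

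Promoter sequence was read for the 63 of 80 nuclear members found in the RefSeq promoter table (GRCm38.p6), 250 bases before to 50 after the start, on both strands. The NRF1 motif, GCGCA then any base then GCGC, bound by a known regulator of respiratory genes, was present in 15 members (23.8%) and in 1402 of 27025 genes of the table (5.19%). The motif CCGGAAG of ETS factors such as GABPA was present in 14 members (22.2%) and in 2683 of all genes (9.93%). Atp5h, Atp5k and Cox6a1 held both, and the motifs share no full overlap of letters. A match is a description of letters and not of binding. The promoters of Cox6a1, a complex IV subunit, and of Ndufb4, an accessory subunit of complex I, are shown because they hold 2 and 3 copies of the NRF1 motif, printed in capitals. The printed stretches are chr5:115348959-115349208 and chr16:37654369-37654618, both on the - strand. Each has 250 bases and so does not cover the whole stretch read.
Cox6a1: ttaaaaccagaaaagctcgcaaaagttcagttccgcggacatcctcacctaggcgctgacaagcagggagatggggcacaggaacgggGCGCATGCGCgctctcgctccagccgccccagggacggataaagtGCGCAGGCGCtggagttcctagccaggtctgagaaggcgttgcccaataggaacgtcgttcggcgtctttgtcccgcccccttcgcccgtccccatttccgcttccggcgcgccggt
Ndufb4: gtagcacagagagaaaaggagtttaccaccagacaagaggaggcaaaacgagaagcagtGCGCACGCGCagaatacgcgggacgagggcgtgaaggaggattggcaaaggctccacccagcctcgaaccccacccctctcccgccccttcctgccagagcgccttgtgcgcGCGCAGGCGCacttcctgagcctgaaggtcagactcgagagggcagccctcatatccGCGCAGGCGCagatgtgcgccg
In the monomer line both rose with 20 samples. Ndufb4 stood at 24.7, 22.5 and 25.7 CPM in the parental and at 31.2, 33.1 and 27.4 CPM in the uninduced samples, and Cox6a1 at 134, 120 and 124 CPM and at 170, 170 and 148 CPM. Neither gene's uninduced samples overlapped the parental ones. The log2 fold changes were 0.32 ± 0.10 and 0.36 ± 0.06 (SE; adjusted p 0.0151 and 8.27e-06, edgeR, 20 samples), and neither passed with 21 samples (adjusted p 0.374 and 0.33). Of the Ndufb4 transcript 37.0% of the 50-base stretches also occur in other genes, so its counts are uncertain.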

How the data were processed

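RNA-seq read counts per gene symbol were deposited by the authors as raw counts, 1 table per sample for 21 samples. The submitters' processing notes name FastQC, TopHat2 and HTSeq with the builds mm10 and GRCm38, and versions, annotation, strand setting and the treatment of reads with several matches are not given in the sources used here. In 18 of them, 25 symbols had become dates, so tables were joined by position. Samples were grouped by their titles.

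The main fit of the counts was the quasi-likelihood pipeline in edgeR 4.0.16 (R 4.3.3, limma 3.58.1), run on all 21 samples with 1 mean per group, TMM factors and filterByExpr (a count of 10, a total of 15), which kept 14311 genes, 76 nuclear and 13 mitochondrial members among them. P-values were adjusted by Benjamini-Hochberg over all genes, and members passing at 0.05 are said to rise or fall. CPM uses TMM-scaled library sizes. The smallest abundance is taken as 3 counts, and intervals and floors cover counting error only. The fit was also run on simulated counts for 14311 genes without a deviating library. Their spread was near that of the 20 samples (biological coefficient of variation 0.0539). Of 196 changed genes, 73 of the 1.5-fold and 88 of the 2-fold ones were recovered. Recovery at the larger spread of the 21 samples (0.120) was not simulated. Lengths are union exons of GENCODE M21 (GRCm38), found for 92 of 93 members. Sequence sharing is the percent of 50-base stretches of the longest transcript found in another gene's transcript. Length trends use genes averaging 10 CPM or more.

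The alternatives tried were RLE factors, library size only, DESeq2 1.42.0, scaling on nuclear genes alone, no filter, a filter of at least 1 CPM in 3 samples, only the groups compared, the replicate block, a loess length offset (span 0.5) and each sample left out. A fit of 19 samples was added after seeing the data. Named members are all mitochondrial genes, tissue isoforms and partners, the Atp5g genes, the 12 nuclear members with the smallest p across groups, and per comparison up to 3 passing rises and falls at 5 CPM or more. Members and lists were chosen with earlier results of these data known. Values of 1 member are not reported here.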

Additional observations from a re-analysis of the deposited data

How the results depend on the processing

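In most comparisons listed here, leaving out sample 1 labelled TCF12 dimer gave the highest number of passing nuclear members. The exceptions were the test across the 7 groups and the set labelled TCF12 dimer. There, leaving out sample 3 of that set gave 70 and 68, and leaving out parental sample 2 gave 4 and 3. The numbers are given in the order across the 7 groups (8 with all 21 samples), induced monomer (1), homodimer (0), the set labelled TCF3 dimer (2), TCF4 dimer (0), the set labelled TCF12 dimer (31), uninduced monomer line (1), heterodimers against homodimer (0). Leaving out 1 sample at a time gave 4 to 70, 0 to 38, 0 to 14, 1 to 21, 0 to 6, 3 to 68, 0 to 47 and 0 to 7. Without that sample and without sample 1 of the uninduced monomer line, the counts were 60, 38, 13, 21, 7, 6, 40 and 7. With the length offset they were 34, 9, 3, 10, 2, 25, 14 and 3. Fits of only the groups compared gave 40, 15, 21, 8, 0 and 49 for the 6 comparisons with the parental line. DESeq2 gave 13 across the groups and 2 for the induced and 2 for the uninduced monomer line. Without a filter there were 58 across the groups, 4 for the set labelled TCF3 dimer, 58 for that labelled TCF12 dimer and 1 for the heterodimers. Library size alone gave 4 for the set labelled TCF3 dimer, 0 for the uninduced monomer line and 1 for the heterodimers. For the uninduced line scaling on nuclear genes alone gave 2 and a filter of 1 CPM gave 2. The induced against the uninduced monomer line had 0 calls in each setting run. The 5 mitochondrial calls across the groups became 3 with library size alone, 8 without a filter, 2 with the length offset and 11 with 19 samples, and 4 to 10 with 1 sample left out. No result changed sign while it passed. Outside the fits of 21 and of 20 samples, the share of all genes passing is not given beside these counts. Where counts differ between settings the cause was not tested, apart from the number of samples or genes that a setting removes by construction.

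Replicate numbers are shared by all groups. Deviations from group means correlated with a mean r of 0.035 over 63 same-numbered pairs of samples and -0.0157 over 126 others, and 18 of the 63 were above 0.1, so the numbers were not taken to pair samples. With the replicate number as a block, 6 nuclear members passed across the groups, 2 in the uninduced monomer line and 24 in the set labelled TCF12 dimer.

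Depth limits low members most. Cox4i2 rests on 5 to 71 counts per library, where 3 counts are 0.182 to 0.488 CPM. The filter on low counts kept Cox6a2, Cox7b2, Cox8b and Cox8c out of the main fit. Without a filter 79 nuclear members were tested, all but Cox8b, which had 0 counts.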
